A study of Mus musculus with 12 samples.

Results

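Of 6 spontaneous lung tumours of the mouse, 2 carried a high signal of Krt20, the keratin of gut surface epithelium, and they are described here against the other 4. The members were chosen on the arrays themselves. On the only Krt20 probe set, tumours whose signal was above 1000 formed one side, which held tumours 2 and 6, and tumours 1, 3, 4 and 5 formed the other. The 2 Krt20-high tumours were thus 2 of 6 tumours and 2 of the 12 arrays of the series. Krt20 signal was 7489 in tumour 2 and 7535 in tumour 6, and 75.4, 3.05, 26.4 and 55.2 in tumours 1, 3, 4 and 5. Both tumours inside the rule were far above the limit, and the nearest tumour outside it was tumour 1. In the 6 normal lungs the lowest Krt20 signal was 5.14, the median 17.9 and the highest 47.6.

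All 12 samples came from untreated B6C3F1 mice, a hybrid strain, that were 2 years old at the end of a long-term bioassay of the National Toxicology Program. The groups were spontaneous lung tumours (n = 6) and normal lungs (n = 6), with no genetic change or agent named for either. Total RNA of frozen tissue was measured on a 1-colour expression array, 1 array per sample. Nothing in the labels ties the samples of a group to separate mice, so the spread between samples may be partly technical, and they give no histology, grade or sex. In bulk tissue, fewer cells of a type and less RNA per cell cannot be told apart.

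Spontaneous lung tumours of this strain usually arise from cells of the alveolus, and the type II cell, which makes surfactant, is the usual starting point. Nkx2-1 is the transcription factor that holds the lung identity of these cells, while Hnf4a drives gut and liver genes. In mouse models of lung adenocarcinoma, loss of Nkx2-1 activity is known to be followed by genes of the gut, with Hnf4a, and the chromatin protein Hmga2 is known as a mark of advanced tumours. The working name of the Krt20-high tumours was gastric-type, after that background, and it was checked here against lists of gastric, intestinal, lung and other genes.

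Differences are given as the mean of log2(signal + 16) in the Krt20-high tumours minus the mean in the other tumours, so 1 unit is a doubling, and folds of low genes are understated. A gene is called apart when both Krt20-high tumours lay above, or both below, all 4 other tumours and the means differed by at least 1 unit. Because the sides were defined from these arrays, all differences between them are descriptions without a test. Of 18193 genes measured, 804 were apart and higher in the Krt20-high tumours, which is 4.42%, and 938 were apart and lower, which is 5.16%. Either direction came to 9.58%. The median difference over all genes was -0.03. The Krt20-high tumours differed by at least 4-fold from the others in 230 higher and 197 lower genes, and by at least 16-fold in 38 and 13. With tumour 2 alone on the Krt20-high side the counts were 1400 and 1562, and with tumour 6 alone 1228 and 1458, where fewer arrays must stand apart. Leaving out any 1 tumour raised the counts over all genes, to 878 to 1400 higher and 1057 to 1562 lower. List counts with a tumour left out, given below, are to be read against these.

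The 6 normal lungs served as the reference level. Of the 804 higher genes, 369 (45.9%) lay above all normal lungs in both Krt20-high tumours while the other tumours overlapped normal lung. A further 128 lay within the normal range in the Krt20-high tumours and below it in the others. Of the 938 lower genes, 348 (37.1%) were below all normal lungs in the Krt20-high tumours alone. Another 204 were within the normal range there and above it in the other tumours, and 98 were below normal lung in the Krt20-high tumours and above it in the others. These positions were counted among genes already chosen as apart and not over all genes. The shares are thus descriptions without a background to set them against.

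Several measures of the arrays moved with the sides. The median signal was 126 and 132 in tumours 2 and 6, 139 to 150 in the others, and 151 to 164 in normal lung. The share of probe sets under a signal of 16 was 15.9% and 15.5% against 14.6% to 15.0%. The part of either in the differences was not tested, but with each array centred on its median, 1046 genes were apart and higher and 718 lower, so 59.3% of the genes apart were higher, against 46.15% as deposited, and the median difference over all genes was 0.10. Tumours 1, 2, 3 and 5 carried Y-linked transcripts and tumours 4 and 6 Xist, as did all 6 normal lungs, so each side held both sexes. Of the genes apart, 459 higher and 551 lower differed by at least 2-fold in both of the following comparisons. Among tumours with Y-linked transcripts, tumour 2 stood against tumours 1, 3 and 5, and among those with Xist, tumour 6 against tumour 4. Over all 18193 genes, 1136 did so in the same direction. For genes apart, the same sign in both comparisons is fixed by the definition, and the part of sex was not tested. Among normal lungs, lung 1 stood apart in neutrophil genes (list mean 13.02 against 7.42 to 9.14), and lungs 2 and 4 in liver genes (9.36 and 9.91 against 6.30 to 7.81). On all genes, tumours 2 and 6 correlated at 0.940, the other tumours among themselves at 0.937 to 0.954, and the 2 sides at 0.907 to 0.928 (Pearson r across genes, which are not independent replicates).

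The study's own groups, all 6 tumours against all 6 normal lungs, were tested with limma, with Benjamini-Hochberg adjustment over all probe sets. The fit had no term for sex. All 6 normal lungs carried Xist, and tumours 1, 2, 3 and 5 carried Y-linked transcripts, so tumour and sex were partly mixed in this test. At an adjusted p of 0.05 and a 2-fold difference, 861 genes rose (4.73%) and 1931 fell (10.6%); after median centring 1280 rose and 1538 fell. Of the 804 genes higher in the Krt20-high tumours, 114 rose and 71 fell in that test. Of the 938 lower genes, 113 rose and 115 fell. The 6 marker genes of the Krt20-high tumours all missed the threshold (limma, adjusted p from 0.083 to 0.60).

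**Figure D1:**
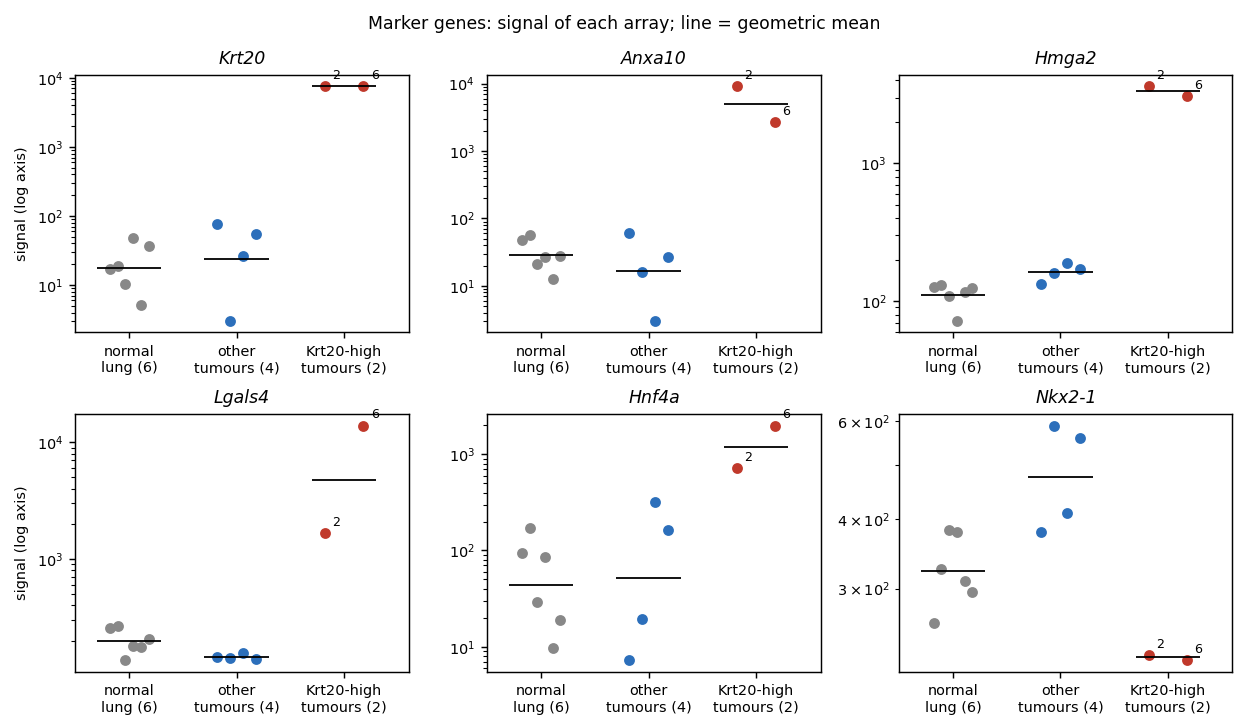
Signal of the 6 marker genes on each array, on a log axis, for 6 normal lungs, 4 other tumours and 2 Krt20-high tumours (labelled by number); the lines are geometric means. Krt20, Anxa10, Hmga2, Lgals4 and Hnf4a are high in tumours 2 and 6, and Nkx2-1 is lowest there, at 228 and 223.

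The other markers high beside Krt20 were Anxa10, Hmga2, Lgals4 and Hnf4a. Anxa10, a calcium-binding annexin made by gastric epithelium, had a signal of 9131 in tumour 2 and 2702 in tumour 6, and 61.8, 16.03, 3.05 and 26.9 in tumours 1, 3, 4 and 5. The highest of the other tumours and of the normal lungs (55.9) were far below both, a difference of 7.04 (SD over the other tumours 0.85, n = 4). Hmga2, the chromatin protein of embryonic and advanced tumour cells, measured 3629 in tumour 2 and 3089.6 in tumour 6, and 133, 161, 189 and 172 in tumours 1, 3, 4 and 5, a difference of 4.24 (SD over the other tumours 0.19, n = 4). Both Krt20-high tumours were high to a similar degree, and the other tumours lay just above the normal lungs, which ran from 72.2 to 131. All 4 Hmga2 probe sets were apart in that direction.

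Lgals4 and Hnf4a were uneven between the Krt20-high tumours. Lgals4, a galectin of intestinal epithelium, had a signal of 1655 in tumour 2 and 13932 in tumour 6, and 144, 140.5, 157 and 139 in tumours 1, 3, 4 and 5, a difference of 4.91. Tumour 6 was the higher of the pair, and the other tumours were within the normal range of 136 to 268. Hnf4a measured 716 in tumour 2 and 1987 in tumour 6, and 7.28, 19.4, 319 and 165 in tumours 1, 3, 4 and 5, a difference of 3.85 (SD over the other tumours 1.84, n = 4). Here tumours 4 and 5 were above tumours 1 and 3, and the normal lungs ran from 9.68 to 170.5.

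Nkx2-1 was the one marker that was lower, by a small difference. Its signal was 228 in tumour 2 and 223 in tumour 6, and 378, 588, 410.3 and 559.8 in tumours 1, 3, 4 and 5, with normal lungs from 260.2 over a median of 317 to 382. Both Krt20-high tumours lay below every other tumour and every normal lung, the difference from the other tumours was -1.02 (SD over these 0.31, n = 4) and that from normal lung -0.48. Only 1 probe set read the gene.

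The gastric name rested on few genes. Of 28 gastric genes measured, 2 were apart and higher, 3 apart and lower, and the median difference was 0.05. The higher ones were Anxa10 and Ctse, the stomach protease cathepsin E. Ctse measured 18931 in tumour 2 and 9189 in tumour 6, and 284, 836, 3181 and 2583 in tumours 1, 3, 4 and 5, against 101 to 316 in normal lung. It was high in both Krt20-high tumours, intermediate in tumours 4 and 5, and it rose in tumours against normal lung by 3.56 (SE 0.76, limma, adjusted p = 0.0029).

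Other gastric genes did not follow the sides. Gkn2, a secreted gastrokine of the stomach surface, measured 1169.5 in tumour 2 and 3549.6 in tumour 6, and 43.8, 342, 18975 and 1828 in tumours 1, 3, 4 and 5, so the highest value was in tumour 4, outside the Krt20-high side. Tff2, a trefoil peptide, was 857 in tumour 2 and 670.2 in tumour 6, but tumour 1 reached 700.4 and fell between them. Muc5ac, the surface mucin, was 49.0 in tumour 2 and 30.8 in tumour 6, and its highest value was 129 in tumour 5. Lower in the Krt20-high tumours were Ptger3, a prostaglandin receptor (50.7 in tumour 2 and 123 in tumour 6, other tumours 383 to 1212), Chia1, the acid chitinase (21.6 in tumour 2 and 114 in tumour 6, others 192 to 8480.2), and Bhlha15. With either Krt20-high tumour alone, more gastric genes were apart and higher, 7 for tumour 2 and 4 for tumour 6. Without tumour 1 there were 4. More of all genes were apart in these settings too. For tumour 6 alone, 5 were lower.

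Intestinal genes were better represented by number. Of 37 measured, 9 were apart and higher (24.3%, against 4.42% of all genes) and 2 lower, with a median difference of 0.13. Without Krt20, which set the sides, the mean of the other 36 genes was 6.70 in tumour 2 and 7.68 in tumour 6. The other tumours had 6.30 to 6.99 and normal lungs 6.02 to 6.50, so only tumour 6 lay above the other tumours. The higher ones held Krt20 and Lgals4 (chosen as markers), Cdh17 and Gpa33 of the gut cell surface, Vil1, Cdhr2 and Myo7b of the brush border, the mucin Muc3 and Phgr1. Gpa33, a surface antigen of gut epithelium, measured 1520.5 in tumour 2 and 854 in tumour 6, with 8.94 to 16.1 in the other tumours and normal lungs at 11.8 to 23.3. Cdh17, the intestinal cadherin, was 133 in tumour 2 and 6056 in tumour 6 against 24.4 to 56.4. Tumour 6 alone carried it at a high level, and tumour 2 was just above the other tumours. Cdhr2 was high in tumour 2 alone, at 492, and at most 28.5 in every other tumour, tumour 6 among them.

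Vil1, the brush-border villin, measured 331.8 in tumour 2 and 1248 in tumour 6 against 24.2 to 259, and Phgr1 measured 1107 in tumour 2 and 2109 in tumour 6 against 44.1 to 191. The glucose transporter Slc5a1 went the other way, at 88.7 in tumour 2 and 14.1 in tumour 6 against 247 to 708, and so did the fucosyltransferase Fut4. Of the list, 3 genes rose and none fell in tumours against normal lung. The remaining 26 of 37 genes were not apart, and without tumour 6 there were 4 lower genes.

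Among 27 endoderm transcription factors, 5 were apart and higher and 4 lower, 2 without tumour 6. Onecut2, a factor of liver and gut development, measured 744 in tumour 2 and 4419 in tumour 6, and 3.32, 5.46, 40.4 and 2.61 in tumours 1, 3, 4 and 5, a difference of 6.16. Both Krt20-high tumours were far above the other 10 arrays, tumour 6 more so, and all 3 probe sets were apart. Foxq1 was 994 and 921 against 278 to 568.1, while Cdx2, the intestinal master factor, was 104 in tumour 2 and 24.1 in tumour 6 against 5.29 to 8.56, with normal lungs up to 101. Its tumour 2 value was at the top of the normal range and its tumour 6 value near the bottom. Gata5 was likewise apart at low values, 80.2 and 90.9, with normal lungs at 81.3 to 188. Lower were Foxa2, which was 1475 in tumour 2 and 594 in tumour 6 against 1762 to 2542, Spdef, Creb3l1 and Tox3; of these, Tox3 rested on a signal of 1.1 in tumour 6, beside 576 in tumour 2.

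By number of genes, the list most often lower in the Krt20-high tumours was that of the type II cell. Of 32 lung lineage and type II cell genes, 21 were apart and lower (65.6%, against 5.16% of all genes), none was apart and higher, and the median difference was -1.39. The list mean was 11.85 and 11.59 in tumours 2 and 6, 13.07 to 13.40 in the others, and 12.01 to 12.20 in normal lung. The median gene was 0.42 below normal lung in the Krt20-high tumours and 1.07 above it in the others. In 14 of the 32 genes both Krt20-high tumours lay below all normal lungs, and in 22 all other tumours lay above them. The shares of all genes in these positions were not counted.

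Slc39a8, a zinc and manganese importer, measured 1435 in tumour 2 and 668 in tumour 6, and 11284, 7296, 8001 and 5634 in tumours 1, 3, 4 and 5, a difference of -2.97. Both Krt20-high tumours were below the normal lungs (2403 to 5178) and all other tumours above them. Lrp2, the endocytic receptor megalin, was 198.6 in tumour 2 and 275 in tumour 6 against 1357 to 2239, and Mlc1 was 84.3 in tumour 2 and 179 in tumour 6 against 1085 to 1626. Hc, complement component C5, was 1746 in tumour 2 and 714 in tumour 6 against 3515 to 15987, with 6777 to 8505 in normal lung.

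Regulators of the type II programme were lower as well. Etv5, the ETS factor that maintains type II cells, measured 552 in tumour 2 and 669 in tumour 6, and 4284, 3399, 3676 and 2823 in tumours 1, 3, 4 and 5, a difference of -2.50, and normal lungs lay between at 1048 to 1848. Cebpa, which promotes their maturation, was 2568 in tumour 2 and 2309 in tumour 6 against 7295 to 12379, and both Krt20-high values were close to the normal range of 1667 to 2352. It rose in the 6 tumours by 1.60 (SE 0.36, limma, adjusted p = 0.004), with an adjusted p of 0.0528 without normal lungs 1, 2 and 4, the lungs that stood apart in neutrophil or liver genes. Foxp2, a lung development factor, was 291 in tumour 2 and 138 in tumour 6 against 444 to 757.

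Surfactant genes were split. Sftpa1, surfactant protein A, was 18769.5 in tumour 2 and 14531 in tumour 6 against 39167 to 46993, below every normal lung (24754 to 34042) in both Krt20-high tumours. Abca3, the lipid pump of lamellar bodies, was 4471 in tumour 2 and 4482 in tumour 6 against 12273 to 13479, and the Krt20-high values were within the normal range. Sftpc, the type II hallmark, was 33196 in tumour 2 and 31738 in tumour 6 against 31265 to 47149 and was not apart, nor were Sftpb (31868 in tumour 2 and 22996 in tumour 6) and Sftpd by the 2-fold limit. The signals of these 3 genes are near the top of the range of the arrays, where differences may be compressed; this was not tested.

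**Figure D2:**
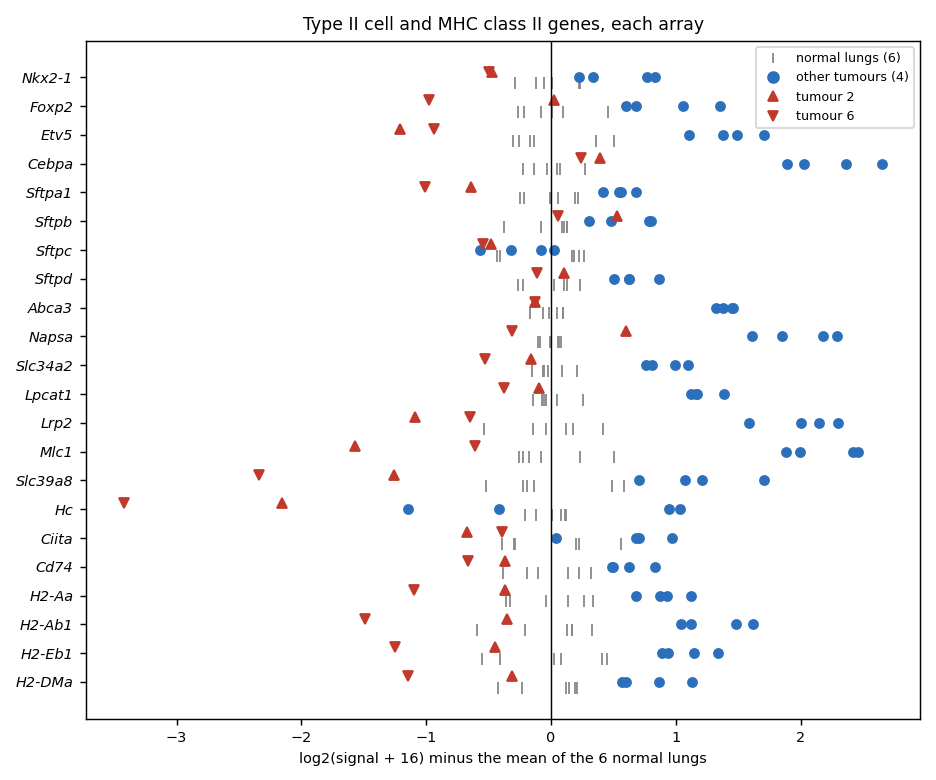
Type II cell genes (from Nkx2-1 to Hc) and MHC class II genes (from Ciita to H2-DMa) on each array, as log2(signal + 16) minus the mean of 6 normal lungs. Triangles are tumours 2 and 6, circles the 4 other tumours and ticks the normal lungs; in most genes the circles lie to the right of the ticks and the triangles at or to the left of them.

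Fewer genes of other lung epithelia were apart. Of 19 type I cell genes 4 were apart and lower and 2 higher, and 15 fell in tumours against normal lung, so most were low on both sides. Ager, the type I receptor for glycation products, was 8024 in tumour 2 and 11729 in tumour 6 against 18720.1 to 28662 and 29886 to 39897 in normal lung. Of 20 club and airway genes 3 were lower and 2 higher, with 6 higher without tumour 6 and 4 without tumour 2. Gabrp, a GABA receptor subunit, was 1968 in tumour 2 and 6804 in tumour 6 against 117 to 502, and the airway mucin Muc5b 2811 in tumour 2 and 1355 in tumour 6 against 189 to 1033. Muc5b rose in tumours by 2.50 (SE 0.60, limma, adjusted p = 0.0063). Of 17 ciliated cell genes 1 was apart and higher (0 without tumour 1), none was lower (3 without tumour 2) and 15 fell. Of 23 endothelial genes 1 was apart and lower, 7 without tumour 2, 3 without tumour 3 and 2 without tumour 4 or tumour 5, and 22 fell.

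The simple keratins had the highest share of genes in the other direction. Of 8 measured, 5 were apart and higher (62.5%, against 4.42% of all genes), and 1 of these, Krt20, defined the sides. Krt19, a keratin of ducts and simple glands, measured 23018 in tumour 2 and 25086 in tumour 6, and 3883, 5224, 3639 and 2577 in tumours 1, 3, 4 and 5. The other tumours lay around the normal range of 3307 to 4723, and the mean of the Krt20-high tumours was above that of normal lung by 2.62. Krt7 was 29772 in tumour 2 and 13500.1 in tumour 6 against 3122 to 3849, with normal lungs at 4264 to 5426.

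Krt8 and Krt18, the partner keratins of all simple epithelia, were already high in the other tumours. Krt18 was 33832 in tumour 2 and 29486 in tumour 6 against 6120.2 to 12701, and it rose in the 6 tumours by 2.36 (SE 0.34, limma, adjusted p = 0.00011). Without Krt20, which set the sides, the mean of the other 7 genes of the list was 12.06 and 12.08 in tumours 2 and 6, against 10.48 to 11.05 for tumours 1, 3, 4 and 5, with normal lungs at 10.39 to 10.80. Tumours 2 and 6 were almost equal on it.

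Some basal and squamous genes were also high. Of 20 measured, 4 were apart and higher and 1 lower, with 3 lower without tumour 2 and 2 without tumour 3, 4 or 6. Krt14, a basal keratin, measured 469 in tumour 2 and 2690.4 in tumour 6 against 9.32 to 21.2, and Serpinb5, the epithelial serpin maspin, 1849.8 in tumour 2 and 1679 in tumour 6 against 45.6 to 479.8. Sprr1a and Ivl, parts of the cornified envelope, were at 2328 in tumour 2 and 2964 in tumour 6 against 106 to 244, and at 5860.3 in tumour 2 and 1406 in tumour 6 against 109 to 678. The defining basal genes were not: Krt5 was 91.4 in tumour 2 and 88.5 in tumour 6 and Trp63 23.3 in tumour 2 and 34.4 in tumour 6, values within those of the other arrays. Sprr1a rose in tumours by 2.28 (SE 0.69, limma, adjusted p = 0.025; 0.0503 without normal lung 3 and 0.171 without normal lungs 1, 2 and 4), and Ivl by 3.98 (SE 0.71, limma, adjusted p = 0.00075).

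Genes of hemidesmosomes, their laminin and matrix proteases formed a larger set. Of 23 measured, 13 were apart and higher (56.5%) and 2 lower, with a median difference of 1.39. Itgb4, the integrin subunit of hemidesmosomes, measured 1787 in tumour 2 and 844 in tumour 6, and 50.8, 100.3, 173 and 108 in tumours 1, 3, 4 and 5, a difference of 3.42. Both Krt20-high tumours were above all 10 other arrays, and tumour 2 was the higher of the pair. Lama3, a chain of laminin-332, was 14396 in tumour 2 and 3915 in tumour 6 against 305 to 1087, with normal lungs at 1768 to 2412, so it was above normal lung in one side and below it in the other.

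The integrin subunits Itga2 (2163 in tumour 2 and 799 in tumour 6 against 102 to 423), Itga3 and Itga6 were apart as well. Mmp13, a collagenase, was 5648 in tumour 2 and 1005 in tumour 6 against 62.0 to 198, the widest difference of the list at 4.43. The plasmin system's receptor Plaur was 3923 in tumour 2 and 4385 in tumour 6 against 749.9 to 1272. Lamb3, the second laminin-332 chain, was not apart, at 10423 in tumour 2 and 4868 in tumour 6 and 3949 to 7639 in the others. It rose in the 6 tumours by 2.72 (SE 0.21, limma, adjusted p = 4.6e-07).

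Some collagen genes of fibroblasts were higher at the same time. Of 22 fibroblast and matrix genes, Col1a1, Col1a2 and Col3a1 were apart and higher (13.6%, against 4.42% of all genes) and Fbln5 lower. The other collagens of the list were not apart. Col1a1 measured 4066 in tumour 2 and 3763 in tumour 6 against 938 to 1672, and normal lungs 708 to 1598. Without tumour 2, 7 of the list were higher, and without tumour 3 or tumour 5, 2 were; without tumour 3, 2 were lower. The mean of the whole list overlapped, at 9.97 and 10.25 against 8.97 to 10.35, and all tumours were below normal lung on it. The part of fibroblasts in the protease values was not tested.

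Growth factor ligands of the ErbB receptors were high in the Krt20-high tumours. Of 12 genes measured, 6 were apart and higher, 1 was lower (2 without tumour 6), and the median difference was 0.94. Ereg, epiregulin, measured 2314 in tumour 2 and 2405 in tumour 6, and 272, 594, 550.3 and 194 in tumours 1, 3, 4 and 5. The normal lungs were at 24.8 to 76.4, so all tumours were above them, and it rose by 3.67 (SE 0.54, limma, adjusted p = 0.00014). Hbegf was 7012 in tumour 2 and 3798 in tumour 6 against 694 to 1958, and Tgfa 1851 in tumour 2 and 1586 in tumour 6 against 539 to 756, where the other tumours lay around normal lung.

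The receptor Egfr was 315 in tumour 2 and 611 in tumour 6 against 84.9 to 266 but below most of normal lung (606 to 1051), and it fell in tumours by 1.81 on the log2 scale (SE 0.34, limma, adjusted p = 0.001). Egf was the lower one, at 40.04 in tumour 2 and 63.0 in tumour 6 against 157 to 313. Among 21 ERK feedback and ETS genes, 5 were higher and 2 lower, and without tumour 6 there were 9 higher. Signalling itself was not measured. Dusp5, a phosphatase that restrains ERK, was 2987 in tumour 2 and 1183 in tumour 6 against 227 to 487. Spry1, another brake, was lower, at 1543 in tumour 2 and 2093 in tumour 6 against 4989.9 to 6190.1.

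Immediate early genes were higher in part. Of 22 measured, 8 were apart and higher (36.4%) and none lower (2 without tumour 2, 1 without tumour 1), among them Fos, Fosb, Junb, Egr1, Egr3, Klf6, Ccn2 and Myc. Myc measured 2031 in tumour 2 and 2438 in tumour 6, and 434, 577, 547 and 490.0 in tumours 1, 3, 4 and 5, against 105 to 387 in normal lung. Both Krt20-high tumours were highest, and the gene rose in the 6 tumours by 2.16 (SE 0.44, limma, adjusted p = 0.0019), with an adjusted p of 0.0511 without normal lungs 1, 2 and 4. Junb was 4245 in tumour 2 and 3136 in tumour 6 against 1075 to 1847, Fos 3369.7 in tumour 2 and 6261 in tumour 6 against 653 to 1827 with normal lungs from 1294 to 9249. The Fos values were thus inside the normal range, and such genes also respond to handling of tissue, whose part was not tested.

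Fosl1, a partner of AP-1 dimers that is switched on by sustained ERK signalling, measured 581 in tumour 2 and 479 in tumour 6, and 12.4, 27.6, 5.74 and 13.7 in tumours 1, 3, 4 and 5, a difference of 4.18. Its normal lungs ran from 5.48 to 70.0, and both probe sets were apart. AP-1 is the dimer of Fos and Jun family proteins that binds the letters TGANTCA.

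**Figure D3:**
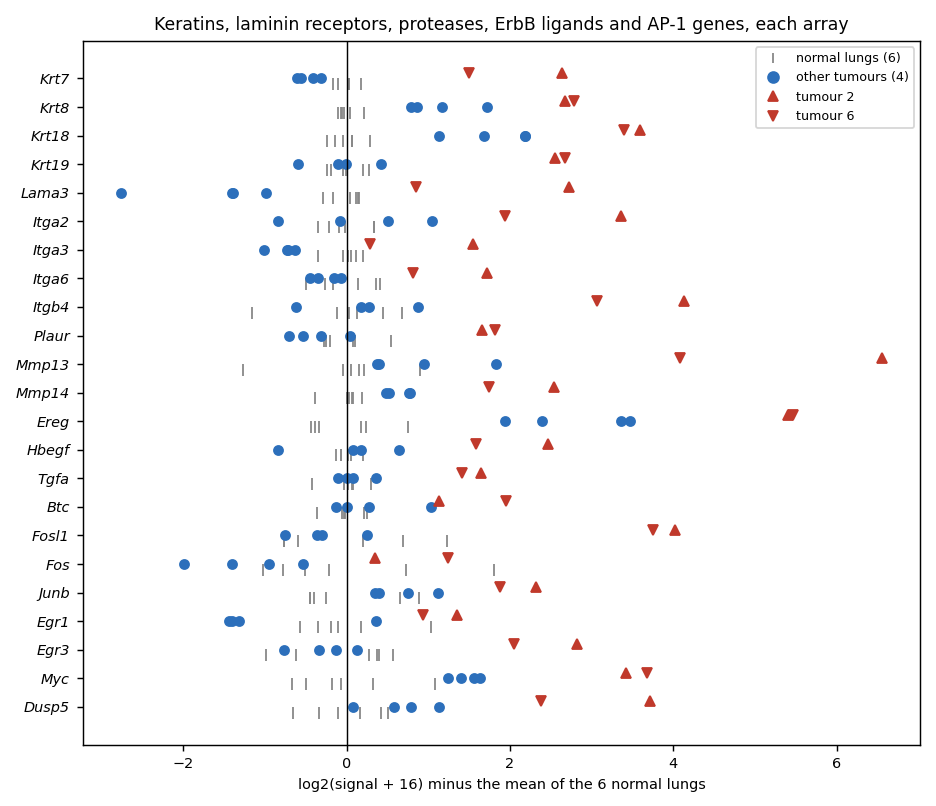
Simple keratins, laminin and integrin genes, proteases, ErbB ligands, immediate early genes and Dusp5 on each array, as log2(signal + 16) minus the mean of 6 normal lungs. Triangles are tumours 2 and 6, circles the 4 other tumours and ticks the normal lungs; in each gene both triangles lie to the right of all circles, as the choice of genes required.

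Promoters were searched for 4 short motifs, those of AP-1, HNF4, NKX2-1 and ONECUT factors. The window was the 250 bases before the annotated start, from RefSeq on GRCm38.p6, for 14452 genes with a promoter in the table. The AP-1 letters TGANTCA, which read the same on both strands, were in 806 of 14452 promoters (5.58%), in 60 of 588 promoters of genes apart and higher (10.2%) and in 33 of 753 of genes apart and lower (4.38%). The letters CAAAGNNCA, a form of the HNF4 motif, were in 4.94% of all, 4.93% of the higher and 5.71% of the lower genes, on either strand. CTCAAG, the core of the NKX2-1 motif, was in 12.7%, 12.6% and 12.4%, and ATCAAT, the core bound by ONECUT factors, in 4.49%, 4.42% and 5.05%. These shares are descriptions, a match is not a site, and a match elsewhere was not searched.

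The matching promoters of 4 genes described here are shown, with the AP-1 letters in capitals, so that the match can be seen against the start, which follows the last base. The genes were chosen after their values were seen, and all 4 were apart and higher. Matches were also found in Cxcl10, Fbp2, Il1rn and Serpinb2, which were higher, and in Bpifa1, which was lower.
Anxa10 (chr8:62123194-62123443, minus strand): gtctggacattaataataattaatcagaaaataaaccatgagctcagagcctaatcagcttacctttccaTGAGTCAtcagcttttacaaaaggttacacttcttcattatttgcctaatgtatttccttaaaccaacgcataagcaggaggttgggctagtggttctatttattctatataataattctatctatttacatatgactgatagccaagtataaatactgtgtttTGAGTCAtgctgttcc
Sprr1a (chr3:92485882-92486131, minus strand): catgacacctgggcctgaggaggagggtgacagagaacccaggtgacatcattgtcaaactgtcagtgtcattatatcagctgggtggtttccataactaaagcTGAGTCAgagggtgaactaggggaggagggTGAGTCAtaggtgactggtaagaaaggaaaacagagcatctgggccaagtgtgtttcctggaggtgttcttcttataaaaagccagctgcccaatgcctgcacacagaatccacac
Mmp13 (chr9:7272264-7272513, plus strand): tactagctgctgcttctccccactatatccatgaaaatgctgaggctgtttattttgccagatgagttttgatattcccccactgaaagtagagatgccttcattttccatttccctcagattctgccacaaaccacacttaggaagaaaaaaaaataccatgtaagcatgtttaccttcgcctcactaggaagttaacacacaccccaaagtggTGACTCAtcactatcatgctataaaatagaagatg
Serpinb5 (chr1:106860925-106861174, plus strand): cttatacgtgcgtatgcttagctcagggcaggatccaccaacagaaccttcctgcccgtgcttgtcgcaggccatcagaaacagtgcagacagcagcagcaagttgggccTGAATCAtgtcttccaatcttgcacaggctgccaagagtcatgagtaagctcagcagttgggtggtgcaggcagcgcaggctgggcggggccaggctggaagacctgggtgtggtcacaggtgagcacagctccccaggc
In Anxa10 the matches begin 180 and 16 bases before the start, in Sprr1a 146 and 116, in Mmp13 35 and in Serpinb5 140. The match of Serpinb5 is TGAATCA and those of the other 3 genes are TGAGTCA or TGACTCA.

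The promoter of Hnf4a is shown with the ONECUT letters in capitals, which begin 59 bases before its start. It was chosen after the values were seen. Aass, Bex1, Bex4 and Chil3, which were apart and lower, also had these letters. Whether Onecut2 acts on Hnf4a was not tested. The share of promoters with these letters among the higher genes, 4.42%, was near that of all genes.
Hnf4a (chr2:163506607-163506856, plus strand): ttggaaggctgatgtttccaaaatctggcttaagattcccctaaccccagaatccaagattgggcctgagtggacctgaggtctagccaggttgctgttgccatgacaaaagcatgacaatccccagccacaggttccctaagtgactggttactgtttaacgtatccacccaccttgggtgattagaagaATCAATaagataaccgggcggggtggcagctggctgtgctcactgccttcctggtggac

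MHC class II genes, which present antigen, were lower. Of 9 measured, 7 were apart and lower (77.8%), none was higher, and the median difference was -1.46. H2-Ab1 measured 3670.4 in tumour 2 and 1664 in tumour 6, and 13133, 14443, 10258 and 9672 in tumours 1, 3, 4 and 5, a difference of -2.24. The normal lungs were at 3119 to 5899, so the other tumours lay above them, tumour 2 within and tumour 6 below. Cd74, the invariant chain, was 15874 in tumour 2 and 12924 in tumour 6 against 28694 to 36464, and the class II regulator Ciita 170.1 in tumour 2 and 211 in tumour 6 against 289 to 567.

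Genes of cells that carry class II genes were also lower in part. Type II cells are known to express them, and 21 of 32 type II cell genes were lower, as above. Of 15 alveolar macrophage genes, 7 were apart and lower and 1, Pparg, higher, with list means of 10.03 and 10.81 against 10.75 to 12.14 in the others, and normal lungs at 9.48 to 10.28. Marco, a scavenger receptor of these macrophages, was 167 in tumour 2 and 807 in tumour 6 against 1123 to 8004. Chil3 was 3259.9 in tumour 2 and 20827 in tumour 6 against 25376 to 31015, so that tumour 2 was low and tumour 6 near the others. None of 15 genes of other macrophages and monocytes was apart in either direction with all arrays, but 3 were lower without tumour 2 or tumour 3, 2 without tumour 4 and 1 without tumour 1, and 2 were higher without tumour 2 or tumour 6 and 1 without tumour 5. Of the alveolar macrophage genes, 2 were higher without tumour 2 or tumour 6. The part of each cell type in the class II values was not tested.

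Inflammatory signals were higher in the Krt20-high tumours, most of all in tumour 2. Of 29 chemokine and cytokine genes, 7 were apart and higher and 1, Il18, lower, with a median difference of 0.90. Cxcl1, which draws neutrophils, was 2354 in tumour 2 and 2089 in tumour 6 against 239.9 to 796, and it rose in tumours by 2.08 (SE 0.43, limma, adjusted p = 0.0021). Csf3, which drives neutrophil production, was 194 in tumour 2 and 131 in tumour 6 against 10.3 to 32.4, and the antagonist Il1rn 5551 in tumour 2 and 2425 in tumour 6 against 493.1 to 1031. Without tumour 6, 18 of the 29 were apart and higher, where 1400 of all 18193 genes were. Without tumour 2, 2 were lower, where 1458 of all genes were. Neutrophil list means were 8.56 and 8.61, those of the other tumours 7.64 to 8.23 and those of normal lungs 7.42 to 13.02. Of 11 neutrophil genes, 3 were apart and higher (27.3%, against 4.42% of all genes) and 1, Lcn2, lower. The part of neutrophils in the cytokine values was not tested.

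Lymphocyte genes separated the Krt20-high tumours from each other. The T cell list mean was 7.27 in tumour 2 and 6.15 in tumour 6, with the other tumours between at 6.38 to 6.73. The natural killer list mean was 8.15 and 5.72 against 6.06 to 7.02, and that of interferon response genes 9.55 and 8.01 against 8.13 to 8.67. In each list tumour 2 was the highest tumour and tumour 6 the lowest. None of 16 T cell genes and 11 natural killer genes was apart, but without tumour 6, 7 of each were higher, and without tumour 2, 3 and 4 were lower. Other left-out tumours gave at most 1 T cell gene in either direction. Of 21 interferon genes 3 were apart and higher, 0 without tumour 2 and 11 without tumour 6, and without tumour 2, 5 were lower (1 without tumour 5).

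A few mast cell and basophil genes were apart. In a list of 11 such genes, chosen after the values were seen, 3 were apart and higher (5 without tumour 2), Hdc was lower and 7 were not apart; the median gene was 0.15 below normal lung in the Krt20-high tumours. Mcpt8, a basophil protease, measured 7316 in tumour 2 and 693 in tumour 6 against 7.18 to 83.8 and 7.14 to 86.6 in normal lung. The mast cell tryptase Tpsab1 was 2293 in tumour 2 and 1070.4 in tumour 6 against 14.7 to 62.0. The list means were 7.70 and 7.33 against 6.24 to 6.81, and normal lungs had 6.99 to 7.62.

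Metabolic genes were also uneven. Of 25 glycolysis and hypoxia genes, 7 were apart and higher and 2 lower, with a median difference of 0.80; 12 were higher without tumour 2 and 13 without tumour 3, and 1 was lower without tumour 3 or tumour 6. Slc2a1, the glucose transporter GLUT1, was 6269 in tumour 2 and 6566 in tumour 6, and 1576, 2737, 1433 and 1338 in tumours 1, 3, 4 and 5, and it rose in tumours by 1.71 (SE 0.37, limma, adjusted p = 0.0031). Slc2a3, the transporter GLUT3, was opposite, at 516 in tumour 2 and 1111 in tumour 6 against 3758 to 9552. Of 26 lipid synthesis genes 6 were lower and none higher, but without tumour 2, 3 were lower and 7 higher, and without any one of tumours 3 to 6, 1 was higher. The 6 held Scd1, a fatty acid desaturase (10661 in tumour 2 and 7019.6 in tumour 6 against 18658 to 33139.6), and Pcyt1a, the enzyme of surfactant lecithin synthesis (442 in tumour 2 and 578 in tumour 6 against 1155 to 1450.0).

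Of 22 Nrf2 target and detoxification genes 5 were higher, 8 without tumour 2, and Hmox1 was lower (3 genes without tumour 6, 2 without tumour 1 or tumour 2). Gsto1, a glutathione transferase, was 17109.6 in tumour 2 and 12768 in tumour 6 against 1123 to 3187, with normal lungs at 3013 to 3799.8. Of 39 cell cycle genes, 4 were apart and higher and none lower, with a median difference of 0.51. The count was 9 without tumour 2, 2 without tumour 6 and 1 without tumour 1, and list means of 9.18 and 9.62 overlapped the 8.49 to 9.20 of the other tumours. Of the 39, 26 rose in tumours against normal lung.

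**Figure D4:**
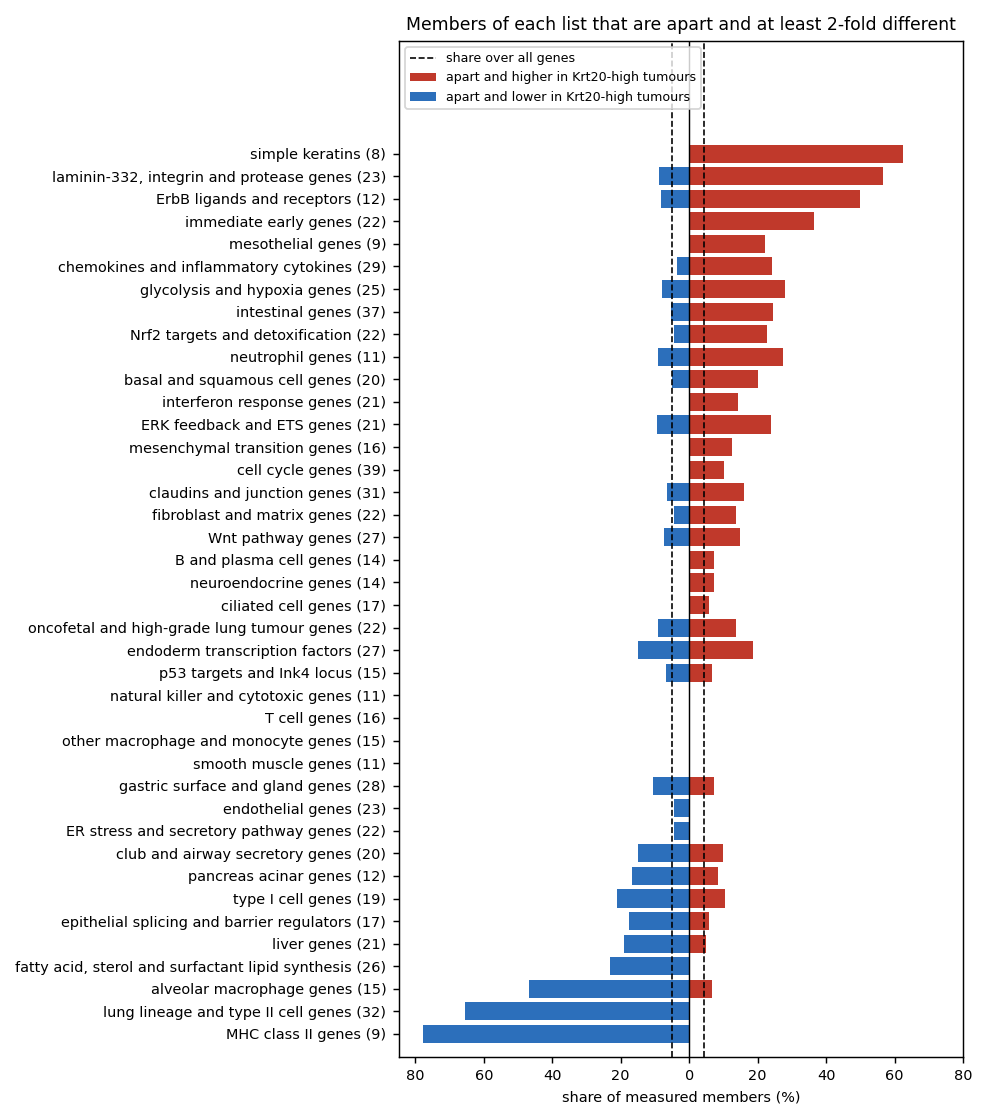
Share of the measured members of each list that were apart and at least 2-fold higher (right, red) or lower (left, blue) in the Krt20-high tumours, with dashed lines at the share over all genes, 4.42% and 5.16%. Simple keratins (62.5%) and the laminin list (56.5%) lead on the right, and MHC class II (77.8%) and type II cell genes (65.6%) on the left.

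The remaining lists held few genes apart. Of 31 claudin and junction genes 5 were higher and 2 lower. The desmosomal cadherin Dsg2 was 2753 in tumour 2 and 11323 in tumour 6 against 286 to 1790.4, while Cldn1 and Cldn8 were the lower ones. Their size depended on the setting. Over the alternative settings the difference ran from -3.51 to -0.36 for Cldn1 and from -4.17 to -0.23 for Cldn8. Of 27 Wnt pathway genes, the ligands Wnt7a, Wnt7b and Wnt10a and their acyltransferase Porcn were higher, and the targets Nkd1 and Sp5 lower, with 4 lower without tumour 2. Nkd1, a feedback inhibitor of the pathway, was 108 in tumour 2 and 111 in tumour 6 against 376 to 1673. Of 17 epithelial regulators Hgfac was higher (2 genes without tumour 2) and 3 lower, among them the ETS factor Elf5, at 529 in tumour 2 and 804 in tumour 6 against 3559 to 9213.

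Of 22 oncofetal genes, Hmga2, Myc and Onecut2 were higher, and Meg3 and Plagl1 lower. Of 15 p53 target genes Perp was higher and Plk2 lower, and of 16 mesenchymal genes Snai2 and Itga5 were higher and none lower. These counts were small and moved when 1 tumour was left out: 6 mesenchymal genes were higher without tumour 2 and 0 without tumour 6, 5 oncofetal genes were higher without tumour 2 and 4 lower without tumour 1 or tumour 6, and 3 p53 target genes were higher and 2 lower without tumour 6 (2 higher without tumour 4). Liver genes had 1 higher and 4 lower of 21, pancreas genes 1 and 2 of 12, neuroendocrine genes 1 and 0 of 14, and B and plasma cell genes 1 and 0 of 14. ER stress genes had 0 higher and 1 lower of 22, and none of 11 smooth muscle genes was apart. Of the smooth muscle genes, 4 were higher without tumour 6, 3 without tumour 4, 1 without tumour 1 or tumour 5, and 2 after median centring. Higher liver genes numbered 3 without tumour 2 or tumour 4 and 2 without tumour 3, and higher pancreas genes 4 without tumour 6 and 0 without tumour 2. Neuroendocrine genes had 2 higher without tumour 4, 3 lower without tumour 6 and 1 lower without tumour 1. B and plasma cell genes had 3 higher without tumour 1 or tumour 2, 0 higher without tumour 3, 2 lower without tumour 6 and 1 lower without tumour 5. ER stress genes had 1 higher and 2 lower without tumour 2.

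The genes with the largest differences came from no single list. Msln, the cell surface glycoprotein mesothelin, measured 4057 in tumour 2 and 12119.9 in tumour 6, and 97.7, 2.57, 80.6 and 19.5 in tumours 1, 3, 4 and 5, a difference of 7.08. The normal lungs, at 122 to 591, lay between the sides. Other mesothelial genes did not go with it: of 9 measured, Msln and Upk1b were apart and higher (1 was lower without tumour 3 or tumour 6), Upk1b at values below normal lung on both sides, and Upk3b and Wt1 were 2.49 in tumour 2 and 62.5 in tumour 6 and 38.6 in tumour 2 and 90.1 in tumour 6.

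Dynap, Acsbg1 and Fbp2 were likewise at low signals outside the Krt20-high tumours. Dynap, a membrane protein, was 4519 in tumour 2 and 3672 in tumour 6 against 3.0 to 57.5, and Acsbg1, an acyl-CoA synthetase, 2613 in tumour 2 and 3475 in tumour 6 against 8.58 to 16.3. Fbp2, the muscle form of fructose bisphosphatase, was 2489 in tumour 2 and 1512 in tumour 6 against 6.53 to 42.5. Aldh1a3, which makes retinoic acid, was 11782 in tumour 2 and 371 in tumour 6 against 8.6 to 28.9, so tumour 2 carried most of it. Dmbt1, a mucosal scavenger protein, was 837 in tumour 2 and 7338 in tumour 6 against 17.6 to 96.2, with the higher value in tumour 6.

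Prkg2, Klrc1 and Htr1b were below normal lung in the other tumours and above it in the Krt20-high ones. Prkg2, a cGMP-dependent kinase, was 9586 in tumour 2 and 4316 in tumour 6, and 45.1, 50.2, 154 and 74.4 in tumours 1, 3, 4 and 5, with normal lungs at 553 to 1139. The 3 groups did not overlap, and all 3 probe sets were apart. Klrc1, a receptor of natural killer cells, was 1838 in tumour 2 and 2284 in tumour 6 against 4.71 to 58.0 and 84.1 to 163 in normal lung. Its values were alike in both Krt20-high tumours, while the natural killer list was high in tumour 2 only.

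Among the lower genes, imprinted transcripts of the Dlk1-Dio3 domain stood out; the list was chosen after the values were seen. Meg3, its maternal long RNA, measured 259 in tumour 2 and 3078 in tumour 6, and 32368, 26888, 21399 and 12413 in tumours 1, 3, 4 and 5, a difference of -4.57 that all 11 probe sets shared. Normal lungs ran from 525 to 718, so the other tumours were far above them, tumour 6 was above them too and tumour 2 was below them. Rian, a neighbouring RNA, was 57.3 in tumour 2 and 387 in tumour 6 against 2439 to 4939, and Mirg 95.3 in tumour 2 and 220.4 in tumour 6 against 825 to 2195. Meg3 rose in the 6 tumours by 3.54 (SE 0.89, limma, adjusted p = 0.0087), with an adjusted p of 0.0897 without normal lungs 1, 2 and 4.

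Dlk1, the paternally expressed gene of that domain, did not follow. It measured 121 in tumour 2 and 7903 in tumour 6, and 10566, 3390.4, 20204 and 109 in tumours 1, 3, 4 and 5. Tumour 6 was high and tumour 5 low, so the sides overlapped. Its normal lungs were at 61.1 to 125.

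Bex genes, small X-linked adaptor proteins, were lower too. Of 5 measured in a list chosen after the values were seen, Bex1, Bex2 and Bex4 were apart and lower, and 1 was higher without tumour 6. Bex2 measured 83.2 in tumour 2 and 238 in tumour 6, and 4631, 6482, 3740.0 and 5731 in tumours 1, 3, 4 and 5, and normal lungs 252 to 868. Both Krt20-high tumours lay below the normal lungs and the other tumours above them. Of 6 carboxylesterase 1 genes, chosen in the same way, 4 were lower and none higher; Ces1d was 702 in tumour 2 and 757 in tumour 6 against 3909.6 to 15208. These families are similar in sequence, and cross-hybridisation between members was not tested.

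Bpifa1, an airway secretory defence protein, measured 739 in tumour 2 and 1295 in tumour 6, and 20411, 37427, 8300.0 and 54394 in tumours 1, 3, 4 and 5. Normal lungs were at 7.15 to 1054, so even the Krt20-high tumours were at the upper end of them or above. It rose in the 6 tumours by 5.94 (SE 1.07, limma, adjusted p = 0.00077). Klk13, a kallikrein protease, was 623 in tumour 2 and 389.8 in tumour 6 against 3969 to 8636 and also rose, by 3.65 (SE 0.65, limma, adjusted p = 0.00071). Npy2r, a neuropeptide Y receptor, was 5.23 in tumour 2 and 8.71 in tumour 6 against 445 to 910.1, and the Krt20-high values were in the normal range of 0.77 to 23.5.

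Aox3 and Enpep were lower, with normal lung between the sides. Aox3, an aldehyde oxidase, was 270.0 in tumour 2 and 454 in tumour 6 against 4645 to 11998, and 3399 to 4309 in normal lung. Enpep, aminopeptidase A, was 817 in tumour 2 and 722 in tumour 6 against 8027 to 16360.4, and Cdh16, a cadherin of kidney and thyroid, 107 in tumour 2 and 94.1 in tumour 6 against 634 to 3443.

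The 2 Krt20-high tumours were not copies of each other. At least 2-fold differences between them were found in 1494 genes higher in tumour 2 and 1499 higher in tumour 6. Of the 804 genes apart and higher, 130 were at least 2-fold higher in tumour 2 and 92 in tumour 6. Of the 938 lower genes, 56 and 123 were so. Lgals4, Cdh17, Onecut2, Dmbt1 and Krt14 were higher in tumour 6, and Aldh1a3, Mcpt8, Mmp13 and Anxa10 in tumour 2.

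**Figure D5:**
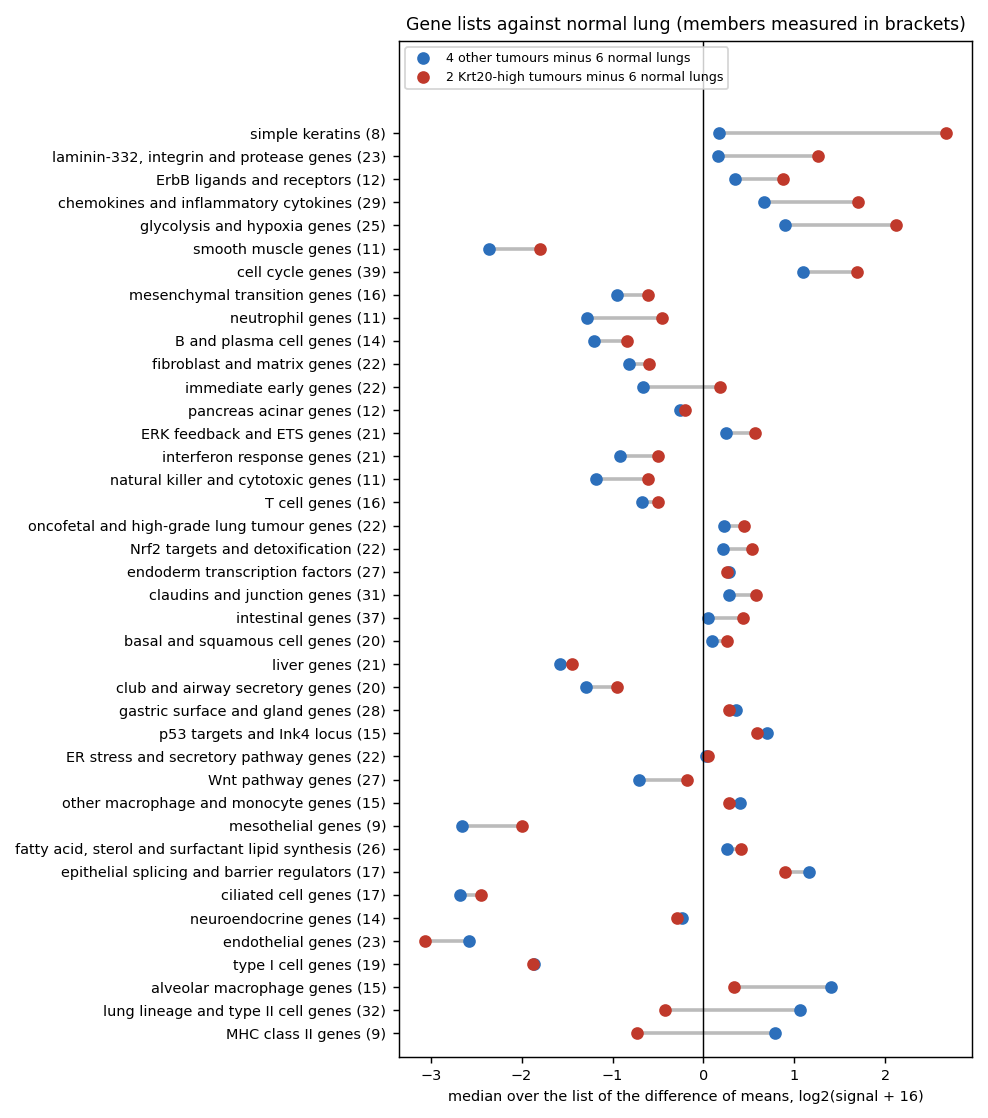
Median over the measured members of each list of the difference of means from 6 normal lungs, in log2(signal + 16), for the 2 Krt20-high tumours (red) and the 4 other tumours (blue), ordered by the median difference between the sides. MHC class II and type II cell genes lie below normal lung in red and above it in blue, while endothelial, ciliated, smooth muscle and type I cell genes are low in both.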

How the data were processed

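Total RNA from 12 lung samples, tumours and normal lungs in equal number, was read on 1-colour Affymetrix arrays, 1 per sample. The deposited values are linear signal intensity per probe set, made by the authors. The submitters' processing notes name MAS5, without version or settings. All arrays had the same 2% trimmed mean, 500, so no further scaling was applied. Of 45101 probe sets, 64 controls were left out. Symbols came from the platform annotation: 34945 probe sets had 1 symbol, 932 several and 9160 none. A gene was read on its brightest probe set with 1 symbol (18193 genes).

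Values were log2(signal + 16) of the deposited intensity. Detection calls were not used here, and the number of arrays limits the precision. The sides were set by Krt20, so they were compared without a test. Tumours and normal lungs were compared with limma 3.58.1 (intensity trend, R 4.3.3), Benjamini-Hochberg adjusted over 45037 probe sets and checked on simulated data. The members, the 41 gene lists (805 of 870 entries measured) and the tests were chosen with earlier results of these data known, and 4 further lists (26 of 30 entries measured) after the values were seen. Named by rule were 6 markers, the 20 largest differences each way among genes bright enough on their higher side (mean signal over the median probe set), and up to 4 genes apart per list; any other gene named was chosen after its values were seen. Alternatives covered the offset, scaling, dim probe sets, choice of probe set, left-out arrays and each sex.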

Additional observations from a re-analysis of the deposited data

Results flagged for a closer look

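In each group of 6 arrays, a sample was picked out when its gap to the nearest other sample took up more of the group's range than Dixon's 95% critical value allows. Of 500 such groups, 31 had such a sample, and chance picks out about 1 in 20.

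Among the tumours, tumour 6 stood apart from the other tumours in Cdh17 (signal 6056), Tox3 (1.10), Cyp2f2 (1339) and Rbp4 (596), and tumour 2 in Gm19990 (41.0), Tmprss4 (281), Chil3 (3260), Cdhr2 (492.5) and Cdx2 (104). Tumour 1 had an actin 3' to 5' ratio of 1.32, above all other tumours. Tumour 5 had the highest Muc5ac signal (129), the lowest mean of the Wnt pathway list (7.04) and the highest mean of the ER stress list (11.16).

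Among normal lungs, lung 1 stood apart in Ceacam10 (1058), Cd177 (5137), Lcn2 (14923), Csf3r (8627), Slc16a3 (508), Car4 (3947), Bex4 (242), Hdc (4095) and Dynap (23.6), and its neutrophil list mean was 13.02. Lung 4 stood apart in Hmga2 (72.2), Aldh1a3 (65.0) and Spdef (18.3), lung 3 in Muc5b (16.9), Phgr1 (16.6) and the alveolar macrophage list mean (9.48), lung 2 in the ERK feedback list mean (10.06; the others reached 9.78) and lung 5 in Gsto1 (3013).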

How the results depend on the processing

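The 804 higher and 938 lower genes became 940 and 1198 with an offset of 1, 593 and 622 with an offset of 64, 883 and 823 after quantile normalization, 1046 and 718 after median centring, 565 and 678 without dim probe sets, 686 and 820 on the mean of a gene's probe sets (2 of the higher genes changed sign), and 230 and 197 at a 4-fold limit. Leaving out 1 tumour gave 878 to 1400 higher and 1057 to 1562 lower genes, with 1228 and 1458 without tumour 2 and 1400 and 1562 without tumour 6, where fewer arrays must stand apart. Among tumours with Y-linked transcripts the counts were 1552 and 1644, and among those with Xist, 1 against 1, 1581 and 2136. With the probe set of largest variance per gene, 857 and 1089 genes were apart, and 20 of the higher and 10 of the lower genes changed sign. Of 202 genes recomputed, the 186 apart kept the sign of their difference under all of these. For genes apart, the offset, the fold limit and left-out arrays cannot change the sign, because the sides do not overlap. Median centring shifts all genes alike and moved the median difference between the sides only from -0.03 to 0.10, so it could not change the sign either. Only quantile normalization and the choice of probe set could have changed it. Of the 16 genes not apart, 11 changed sign, among them Xist, Gkn2, Dlk1, Sftpc and Lamb3. For the 6 tumours against 6 normal lungs, every alternative run stayed within 1.5 times of 861 and 1931 genes, with 805 to 913 and 1858 to 1978 when 1 array was left out, and 658 and 1604 without normal lungs 1, 2 and 4, chosen after seeing the data. Median centring gave 1280 and 1538, and moved the median difference over all probe sets from -0.06 to 0.13. The labels number both groups alike. Deviations of same-numbered samples correlated at -0.018 to 0.022 and none of the 6 matched its own number best. Tumour and normal lung of 1 mouse need not deviate alike, so these correlations cannot decide on pairing. Tumours 1, 2, 3 and 5 carried Y-linked transcripts and all normal lungs Xist, so these numbers do not join samples of 1 mouse. Numbers 4 and 6 stay undecided. With the numbers as a replicate block, 866 genes rose and 1908 fell. Over the named genes, 235 of 4218 recomputed tests lost the threshold and 93 gained it. The split has 2 arrays on one side, signals under about 16 carry no order, and the most abundant transcripts may be compressed, which was not tested.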
